A study of Homo sapiens with 4 samples.

Results

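Across 4 long-read libraries of human induced cortical neurons, 723 unannotated last exons of annotated genes were found in 685 genes. The rule that chose them used exon structure and no read counts. The unannotated transcripts are themselves models built from reads, so a locus enters through the libraries that hold its reads (722 of 723 had at least 1). An exon of an unannotated transcript qualified when it overlapped no annotated exon on its strand and was the 3′ exon of a spliced transcript in every unannotated transcript that carried it. Overlapping exons of a gene were merged into 1 locus. The 723 loci were part of 2331 unannotated exon loci in 1683 annotated genes, of which 671 were first exons, 910 internal exons and 27 of mixed position. Inside the annotated span of their gene lay 389 of the last exons, and 334 lay beyond it, 319 of them downstream.

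The neurons came from KOLF2.1J, an established line of human induced pluripotent stem cells, through expression of NGN2 from a doxycycline-inducible promoter. In all 4 libraries the cells carried a constitutive dCas9-BFP-KRAB construct for CRISPR interference, which silences the gene a guide RNA points to, and a lentiviral guide selected with puromycin as a stable pool. The control library had a non-targeting guide and no 5-azacytidine, and the knockdown library had a guide against TDP-43. In the azacytidine library the non-targeting guide was combined with 72 hours of 5 µM 5-azacytidine, which blocks DNA methylation. The combined library had the TDP-43 guide and the same treatment. Each group had 1 library, so every test on reads below compares libraries and not conditions, and no difference has a replicate check.

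Where a transcript ends is set by cleavage and polyadenylation, which need a poly(A) signal such as AATAAA upstream of the cut. When an intron holds a usable splice acceptor and poly(A) signal, a transcript can end early in an alternative last exon and lose the downstream coding exons. Past the annotated end of a gene, a spliced exon instead places the end of the transcript beyond the annotated span, whether or not annotated exons are skipped. TDP-43 is an RNA-binding protein that represses unannotated (cryptic) exons in neurons. The early last exon of STMN2, a regulator of axonal microtubules, is a well-known example.

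Sequences are shown for loci whose reads are described below and whose bases are present in the reference transcripts. They are 5′ to 3′ on the gene's strand of hg38 and were read from GENCODE 29 transcript sequences by position. The first set joins into the unannotated exon from an annotated coding exon: these are the last 30 bases of that exon, with the 3 bases before the splice donor in capitals. The choice of these windows was made after the files were seen.
ADARB2 (chr10:1737051-1737080, minus strand): ggaggaggaggcggaggtccaagcggaAAG
PHF2 (chr9:93660531-93660560, plus strand): accaagatggagccgcccaagaagggcAAG
SLC6A11 (chr3:10918424-10918453, plus strand): gggtacccattgctgaggtggcagagtCAG
INA (chr10:103278247-103278276, plus strand): cggcacagtgccgaggtagctggctacCAG
KLHL13 (chrX:117972731-117972760, minus strand): caggtcaactccactttctccagcataCAT
In the first 4 the exon ends in AG, as 188 of 305 (61.6%, 95% Wilson interval 56.1 to 66.9) donor exons of the class found in GENCODE 29 did, against 54.1% of all GENCODE 29 exon ends that precede an intron.

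The second set shows splice acceptors, with 20 intron bases in lower case and the first 10 bases of the unannotated exon in capitals. CREB3 is the locus beyond its gene that passed the test below, and ENSG00000290854 the locus with most reads.
CREB3 (chr9:35738600-35738629, plus strand): cttgtcaaacttcatttcagATTCCATCAC
ENSG00000290854 (chr1:1729671-1729700, minus strand): ctttcctcaaaaactaatagAAGACCGGCT
The third set shows the last 30 bases of both exons, with the poly(A) hexamer in capitals, ATTAAA in CREB3 and AATAAA in ENSG00000290854.
CREB3 (chr9:35738858-35738887, plus strand): gtatcatggATTAAAtatgcattgacgcgg
ENSG00000290854 (chr1:1727386-1727415, minus strand): tcagcaaagtaaAATAAAtgttaaatatgg
Reference transcript sequence covered the last 50 bases of 36 loci. AATAAA or ATTAAA was present on the transcript strand in 22 of these 36 (61.1%, 44.9 to 75.2), and in 60498 of 181643 (33.3%) GENCODE 29 multi-exon transcripts in a window of the same length. These 36 loci are those whose ends lie under reference exons, in CREB3 exons of the opposite strand, and are not a sample of the class. The reference transcripts were not selected for a complete end. The shares are therefore not like for like, and whether the motif is more frequent in the class was not tested. A match describes the letters only. Windows of further loci that reference transcripts cover are not printed.

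Most of the loci were long, terminal exons of low abundance. The median length was 1812 bases inside genes and 1628.5 bases beyond them, with a range of 10 to 6219 bases over all. The intron before the exon had a median of 3728 bases inside and 7108.5 bases beyond. Nearly all loci (668) were carried by 1 transcript, and the transcript with most reads had a median of 4 exons.

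Loci inside and beyond the gene differed in how they were joined to it. The splice donor was that of an annotated exon for 305 of 389 loci inside (78.4%, 95% Wilson interval 74.1 to 82.2) and for 98 of 334 beyond (29.3%, 24.7 to 34.4). Inside genes the donor lay early, at a median of 25.3% of the gene's length (quartiles 4.09 and 55.8%). For 147 loci inside (37.8%) the exon before was coding in GENCODE 29, against 44 beyond (13.2%). Protein-coding genes held 212 of the loci inside and 145 of those beyond.

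The 319 downstream loci began a median of 10587 bases past the annotated gene end (quartiles 3896 and 27358.5). Of these, 290 began more than 1000 bases away, 166 more than 10000 and 23 more than 100000. A known exon of another gene lay on the opposite strand at 116 loci beyond (34.7%) and at 55 inside (14.1%). Whether the counting used strand is not given in the sources used here, so there the reads of a gene and of its antisense partner cannot be told apart. In all, 69 of the 723 loci lay within a different gene on the same strand.

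**Figure D1:**
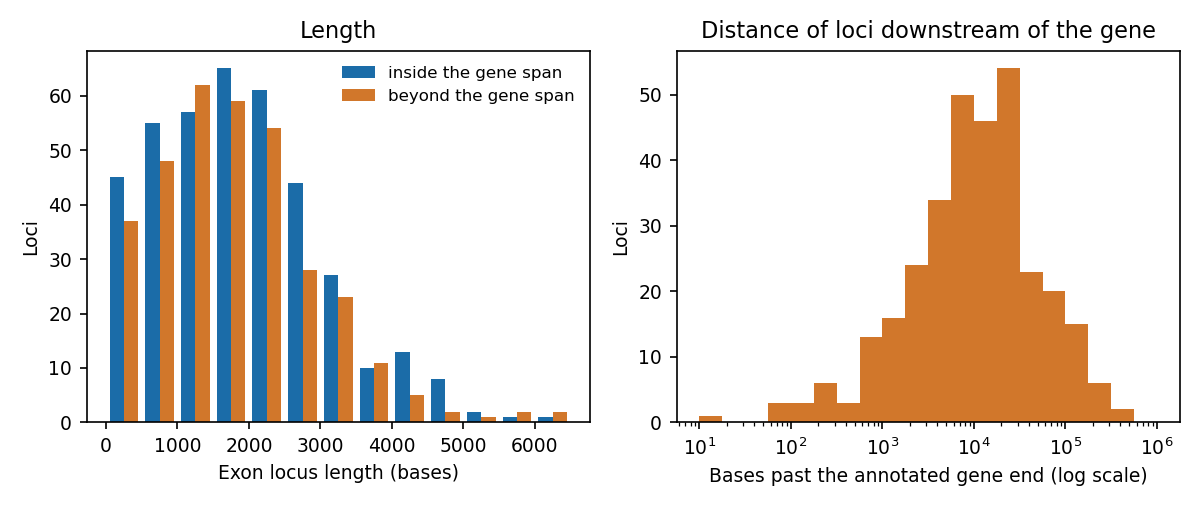
Length of the unannotated last exons in bins of 500 bases (left, bases against number of loci, inside in blue and beyond in orange) and the distance of the 319 downstream loci from the annotated gene end (right, bases on a log scale against number of loci). Lengths inside and beyond overlap over the whole range, and most downstream loci sit between 1000 and 100000 bases from the gene.

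Few reads supported each locus. Values here are reads of the carrying transcripts, that is, estimated counts divided by 2 because the deposited counts were even. Why they were even is not given in the sources used here. Summed over the libraries, the median was 2.28 reads (quartiles 1 and 6) and the highest 94.9. At least 10 reads were present for 115 loci and at least 20 for 37. Reads occurred in 1 library alone for 300 loci (41.5%) and in all 4 for 118 (16.3%). At least 2 full-length reads in all were present for 328 loci. The 10 loci with most reads held 15.5% of all reads in the class.

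The loci with most reads inside genes were used in every library. The highest total, 95 reads, belonged to ENSG00000290854 (chromosome 1, 1727386 to 1729680), with 21 of 69 transcript reads of the gene in the control library, 26 of 103 in the knockdown, 28 of 86 in the azacytidine and 20 of 55 in the combined library. Usage, the share of the gene's transcript reads that carry the exon, was therefore 30.4, 25.2, 32.6 and 36.4%. Reads counted for a gene but for none of its transcripts are not part of usage. The locus lies within another gene on the same strand, so its gene is uncertain.

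POLD3, a subunit of DNA polymerase delta, had the next most, with an exon of 2044 bases (chromosome 11, 74496649 to 74498692) joined to its untranslated first part. Its values are given with azacytidine below. INA encodes alpha-internexin, a neuronal intermediate filament, and an exon of 2992 bases (chromosome 10, 103279942 to 103282933) followed one of its coding exons. It held 20 of 88 reads in the control, 19 of 94 in the knockdown, 20 of 104 in the azacytidine and 11 of 53 in the combined library, all uniquely assigned. Usage stayed between 19.2% and 22.7%, and the intervals of the 4 libraries overlapped.

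PHF7, a PHD finger protein, ended in its locus (chromosome 3, 52415895 to 52417754) in 16 of 22 control reads, 18 of 24 knockdown reads, 11 of 14 azacytidine reads and 20 of 25 reads of the combined library. Among transcript reads this exon was thus the major end in each library, at 72.7 to 80%. Of all reads of the gene it held 16 of 28, 18 of 46, 11 of 23 and 20 of 31. For ZNF718, a zinc finger gene (chromosome 4, 126848 to 129776), the values in the same order were 13 of 25, 18 of 29, 14 of 22 and 9 of 14 reads. SPAG16, an axonemal protein (chromosome 2, 213396507 to 213399630), had 6 of 17, 12 of 23, 7 of 17 and 8 of 17 reads. In these 3 genes the libraries overlapped within their intervals.

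The remaining most-read loci inside genes were in DHRS4L2 (13 of 13, 8 of 10, 9 of 12 and 8 of 10 reads), a dehydrogenase gene with near-identical neighbours, and in the non-coding gene ENSG00000254929 (14 of 15, 22 of 24, 10 of 12 and 1 of 2 reads). Reads of DHRS4L2 may be split among its copies, so its usage is uncertain.

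Beyond the annotated gene, ZSCAN23, a zinc finger gene, had most reads. Its exon of 2436 bases (chromosome 6, 28421405 to 28423840) began 8089 bases past the gene end and overlapped 141 bases of an antisense exon. It ended 24 of 25 reads in the control, 31 of 34 in the knockdown, 9 of 10 in the azacytidine and 18 of 19 in the combined library. The annotated transcript of ZSCAN23 had between 1 and 3 reads per library, so nearly all transcript reads of this gene ended at the unannotated exon. Of all reads of the gene it held 24 of 34, 31 of 47, 9 of 13 and 18 of 31. The splice donor before the exon was unannotated and lay outside the annotated gene span, so its link to ZSCAN23 is uncertain.

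DCP1B, a cofactor of messenger RNA decapping, ended 4261 bases past its gene (chromosome 12, 1939629 to 1941791) in 12 of 20, 6 of 17, 10 of 17 and 19 of 23 reads. TMEM168, a transmembrane protein gene, ended 21048 bases past its gene (chromosome 7, 112738836 to 112741328) in 6 of 16, 11 of 34, 11 of 30 and 13 of 28 reads. SP2, a transcription factor, ended 704 bases past its gene (chromosome 17, 47929662 to 47931730) in 1 of 16, 9 of 25, 7 of 20 and 9 of 25 reads. The SP2 exon overlapped 291 bases of antisense exons of SP2-AS1. Its splice donor was unannotated and outside the annotated gene span. The control library was the lowest for SP2, but neither the knockdown (29.8 percentage points, adjusted p = 0.347) nor the azacytidine difference (28.8 points, adjusted p = 0.579, two-sided Fisher's exact tests over 169 loci) passed the test. ENSG00000303579.1 had 9 of 9, 8 of 9, 5 of 11 and 17 of 17 reads, and ENSG00000309247.1 had 6 of 14, 8 of 8, 7 of 16 and 5 of 14. Both were below the read minimum of the tests. For ENSG00000309247.1 the splice donor was also unannotated and outside the annotated gene span.

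Summed over the class, last exons inside genes made up a larger part of reads in the combined library. They held 574 of 380226 transcript reads in the control (0.151%, 95% Wilson interval 0.139 to 0.164), 758 of 448742 in the knockdown (0.169%, 0.157 to 0.181), 524 of 317711 in the azacytidine (0.165%, 0.151 to 0.180) and 571 of 288441 in the combined library (0.198%, 0.182 to 0.215). The combined library was 1.20 times the azacytidine library (two-sided Fisher's exact test, adjusted p = 0.00721 over 8 comparisons) and 1.17 times the knockdown library (adjusted p = 0.00896). The knockdown against the control gave a ratio of 1.12 (adjusted p = 0.0685), and azacytidine against the control 1.09 (adjusted p = 0.166). With full-length counts the knockdown ratio passed (1.28, adjusted p = 0.00653) and that of the combined over the knockdown library did not (1.04, adjusted p = 0.741). The loci were defined from reads of these same libraries, and 300 of the 723 had reads in 1 library alone. A share can therefore depend on which loci each library brought in, and the p-values do not cover this. The limit holds also for the shares beyond genes and within the class below.

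Last exons beyond genes were higher in both azacytidine libraries. They held 396 reads in the control (0.104%, 0.0944 to 0.115), 407 in the knockdown (0.0907%, 0.0823 to 0.0999), 423 in the azacytidine (0.133%, 0.121 to 0.146) and 387 in the combined library (0.134%, 0.121 to 0.148). The ratio was 1.28 for azacytidine over control (adjusted p = 0.00177) and 1.48 for combined over knockdown (adjusted p = 3.52e-07, two-sided Fisher's exact tests). With the knockdown it was 0.871 without azacytidine (adjusted p = 0.0685) and 1.01 with it (adjusted p = 0.916). Full-length counts ended both azacytidine calls, with ratios of 1.06 (adjusted p = 0.740) and 1.27 (adjusted p = 0.0765).

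Other features of the libraries moved with azacytidine as well. Full-length reads made up 28.2% of transcript reads in the control, 23.3% in the knockdown, 35.7% in the azacytidine and 31.2% in the combined library. The 6 markers of neural progenitors and dividing cells summed to 669, 708, 67 and 58 reads in the same order. All 6 were detected but did not move alike. PAX6 had 290, 313, 3 and 4 reads, MKI67 142, 154, 2 and 1, and TOP2A 109, 133, 3 and 2. VIM had 61, 51, 21 and 7 reads. NES differed less, with 64, 53, 36 and 42, and HES5 was sparse, with 3, 4, 2 and 2. Their part in the shares was not tested. In bulk RNA, fewer cells of a type and less RNA per cell cannot be told apart.

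**Figure D2:**
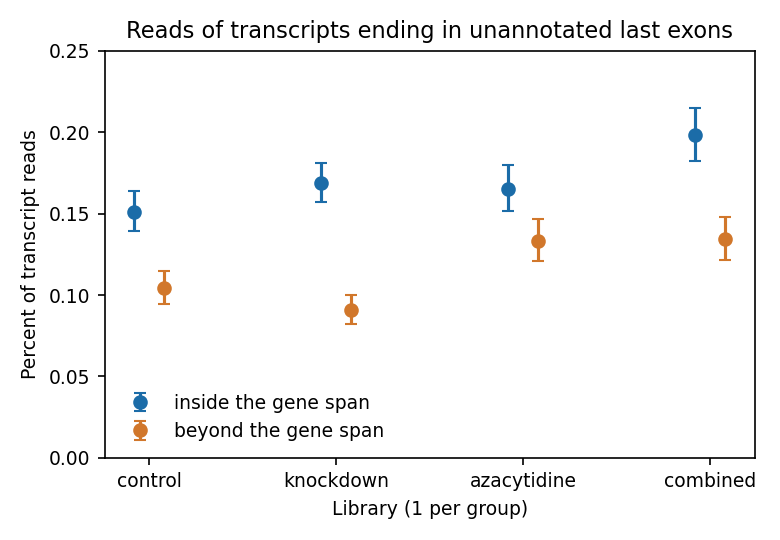
Share of transcript reads from last-exon loci inside (blue) and beyond (orange) the annotated gene span in each library, in percent, with 95% Wilson intervals as bars. Shares beyond the gene sit at 0.133 and 0.134% in the azacytidine and combined libraries, above 0.104 and 0.0907% in the control and knockdown libraries.

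Within the class, reads shifted toward loci inside genes in the knockdown library. Inside loci held 59.2% of 970 last-exon reads in the control, 65.1% of 1165 in the knockdown, 55.3% of 947 in the azacytidine and 59.6% of 958 in the combined library. The knockdown library was above the control (two-sided Fisher's exact test, adjusted p = 0.0204 over 4 comparisons) and above the combined library (adjusted p = 0.0204). The combined library against azacytidine did not pass (adjusted p = 0.0850), nor did azacytidine against control (adjusted p = 0.0964).

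The number of loci detected was compared at 1 depth, 90107 full-length reads. Loci with at least 2 full-length reads then numbered 74.9 in the control, 91.6 in the knockdown, 81.7 in the azacytidine and 105 in the combined library, as means over random thinning. Inside genes the numbers were 49.2, 69.5, 48.7 and 69. Both knockdown libraries were higher there. Beyond genes they were 25.7, 22.1, 33.1 and 36, and both azacytidine libraries were higher. With at least 1 full-length read the order was different, at 272, 242, 276 and 265 loci. Inside genes these were 148.2, 151.0, 151.3 and 173, and the knockdown library was no longer above the azacytidine library. Beyond genes they were 123.9, 90.5, 124.7 and 92, and the combined library was below the control. Neither pattern by side held at this minimum. With at least 2 uniquely assigned reads at a matched depth, the control and knockdown libraries differed little, at 132 and 133 loci, beside 142 and 155. Inside genes these were 80.2, 88.4, 79.6 and 102, and beyond genes 51.4, 44.4, 62.2 and 53, which kept both patterns. No test was made of these numbers, and the loci were themselves defined from reads of these libraries.

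Usage could be tested for 36 of the 723 loci, 25 inside and 11 beyond, which had at least 10 reads at the locus and a mean of 20 transcript reads of the gene. A locus was called when usage differed by at least 10 percentage points with an adjusted p under 0.05 in both pairs of libraries that differ by a treatment. For the knockdown these pairs were knockdown against control and combined against azacytidine. Usage rose in 2 last-exon loci, in STMN2 and CREB3, and fell in 0, that is in 5.56% of 36. Over all 169 unannotated exon loci tested, 4.73% were called higher and 0% lower, so the share of last exons was near that of the background. Of the others called, 5 were among 75 internal and 1 among 57 first exons. The minimum of 10 reads was summed over all libraries, for all 169 loci alike. In the control and azacytidine libraries STMN2 had 0 and 2 reads and CREB3 3 and 5. Both passed the minimum only through the knockdown libraries, where they were high. The same holds for ADARB2, DLGAP1 and PHF2 below, with 0 reads in each of these libraries. These loci were thus not selected independently of the knockdown. By unadjusted p in both pairs, 3 last exons were higher (ADARB2 in addition) and 0 lower. In the crosswise pairing, knockdown against control with azacytidine against combined, 0 were called by either p.

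STMN2 ended early in a 2973-base exon after its first coding exon (chromosome 8, 79616822 to 79619794, hg38). It held 0 of 80 transcript reads in the control, 12 of 31 in the knockdown, 2 of 93 in the azacytidine and 5 of 18 in the combined library. Both knockdown libraries were high and both others were near or at 0, with no overlap of their intervals. Usage rose by 38.7 points without azacytidine (adjusted p = 3.02e-06) and by 25.6 points with it (adjusted p = 0.0159, two-sided Fisher's exact tests). A count of 0 in 80 reads allows a share of up to 3.75% in the control.

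The annotated transcript ENST00000220876.12 of STMN2 had 77 reads in the control, 19 in the knockdown, 87 in the azacytidine and 13 in the combined library. Its full-length reads numbered 53, 3, 56 and 7, and those of the early end 0, 6, 0 and 4. Thus the annotated full-length form was lower in the same libraries in which the early end was present. Usage counts transcript reads alone. Of all reads of the gene, also those given to no transcript, the early end held 0 of 117, 12 of 104, 2 of 140 and 5 of 64. These shares were not tested. The list of 31 known TDP-43 targets held 1 gene with a locus of this class, STMN2.

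CREB3, a transcription factor anchored in the endoplasmic reticulum membrane, was called at an exon of 268 bases 1620 bases past its gene (chromosome 9, 35738620 to 35738887). The splice donor before the exon was unannotated and lay outside the annotated gene span, in a transcript of 10 exons. The exon held 3 of 13 reads in the control (23.1%), 16 of 17 in the knockdown (94.1%), 5 of 27 in the azacytidine (18.5%) and 20 of 25 in the combined library (80%). Usage rose by 71.0 points (adjusted p = 0.0017) and by 61.5 points (adjusted p = 0.000598, two-sided Fisher's exact tests). The libraries with and without the knockdown did not overlap in value or in interval.

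Most reads behind the CREB3 call were not full-length. Full-length reads at the exon numbered 2, 1, 3 and 1, whereas those of the annotated transcript ENST00000353704.3 numbered 6, 0, 17 and 0. In estimated reads that transcript had 9, 0, 21 and 0, and 0 uniquely assigned reads in every library. With uniquely assigned counts the 2 pairs did not change in the same direction. The exon then had 2, 12, 4 and 15 reads and the annotated transcript ENST00000486056.1 had 1, 1, 1 and 4. Usage rose in knockdown against control, but not in combined against azacytidine. All 268 bases of the exon overlap exons of GBA2 on the opposite strand, and the locus leaves the class when exons on either strand are used to define it.

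**Figure D3:**
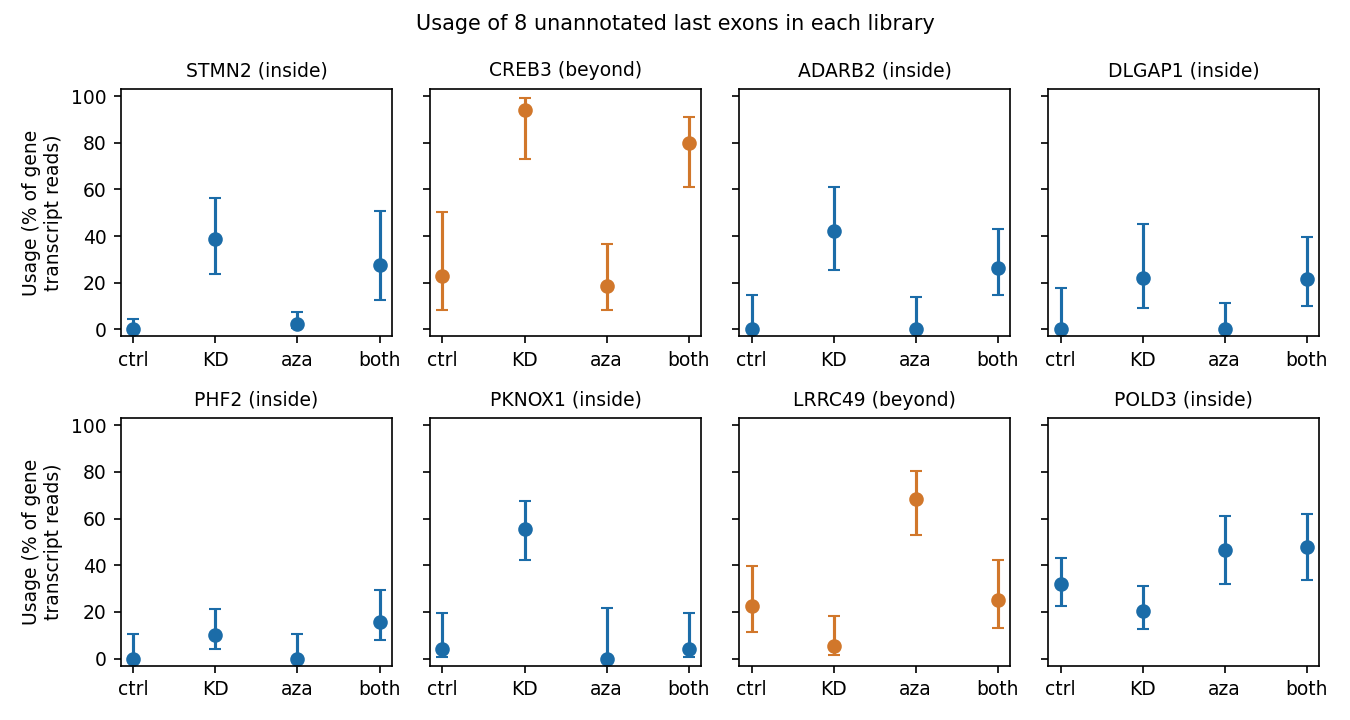
Usage of 8 unannotated last exons, in percent of the gene's transcript reads, in the control (ctrl), knockdown (KD), azacytidine (aza) and combined (both) libraries, with 95% Wilson intervals as bars, inside loci in blue and beyond loci in orange. STMN2, CREB3, ADARB2, DLGAP1 and PHF2 are higher in both knockdown libraries, PKNOX1 in the knockdown library alone, and LRRC49 is highest in the azacytidine library.

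Several loci inside genes had reads in both knockdown libraries and 0 in both others without passing the rule. ADARB2 encodes a brain protein of the adenosine deaminase family acting on RNA. Its 3512-base exon (chromosome 10, 1642455 to 1645966) followed a coding exon across an intron of 91084 bases and held 0 of 22 reads in the control, 11 of 26 in the knockdown, 0 of 24 in the azacytidine and 9 of 34 in the combined library. Usage rose by 42.3 points without azacytidine (adjusted p = 0.00631), and the difference of 26.5 points with it missed the threshold (adjusted p = 0.0893, two-sided Fisher's exact tests). Scaled to library size in place of the gene's reads, ADARB2 was called and neither STMN2 nor CREB3 was.

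Full-length reads of the ADARB2 exon numbered 0, 4, 0 and 5, while the annotated transcript ENST00000381312.6 had 0 full-length reads in each library and 22, 15, 21 and 25 reads in all. The annotated form was present in every library. The 0 of 22 and 0 of 24 reads allow shares of up to 13.6% and 12.5%.

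DLGAP1, a scaffold of the postsynaptic density, had 0 of 18, 4 of 18, 0 of 30 and 6 of 28 reads at a 1905-base exon (chromosome 18, 4145763 to 4147667). The differences were 22.2 points (adjusted p = 0.428) and 21.4 points (adjusted p = 0.0925). PHF2, a histone demethylase, had 0 of 33, 5 of 50, 0 of 32 and 7 of 44 reads at a 526-base exon (chromosome 9, 93661348 to 93661873). Its differences were 10 points (adjusted p = 0.471) and 15.9 points (adjusted p = 0.170, two-sided Fisher's exact tests). Neither passed, and in both genes the reads were confined to the knockdown libraries at this depth.

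SLC6A11, a GABA transporter, had 0 of 5, 5 of 8, 0 of 1 and 1 of 6 reads at a 1336-base exon (chromosome 3, 10923919 to 10925254). The non-coding gene ENSG00000254501 had 0, 6, 0 and 1 reads at an exon that overlaps 2590 bases of VPS51 exons on the other strand. Both were too shallow to test.

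How many loci behaved in this way was counted among loci with at least 2 reads. Reads were present in both knockdown libraries and 0 in both others for 40 of 493 last exons (8.11%), against 7.21% of all 1526 unannotated exon loci. The opposite pattern was seen at 24 of 493 (4.87%), against 5.05%. Both shares were near the background. Inside genes the numbers were 27 and 8 of 279 loci, and beyond genes 13 and 16 of 214. The libraries with the knockdown held 737183 transcript reads and those without 697937.

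Azacytidine gave 32 last exons with reads in both treated libraries and 0 in both others (background 6.23%), and 35 with the opposite pattern (background 7.93%), with 606152 and 828968 transcript reads. In the crosswise pairing the knockdown and azacytidine libraries alone had reads at 34 loci (background 7.08%), of which 12 were inside and 22 beyond, and the control and combined libraries alone at 22 (background 4.26%). No test was made of these counts, and the loci they count were defined from reads of the same libraries.

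In 1 pair of libraries, knockdown against control, 4 last exons were higher and 0 lower, while 7.69% and 2.37% of all tested loci were. They were STMN2, CREB3, ADARB2 and PKNOX1. PKNOX1, a homeodomain transcription factor, had an exon of 20 bases (chromosome 21, 42992028 to 42992047) with 1 of 25, 31 of 56, 0 of 14 and 1 of 25 reads. Usage rose by 51.4 points in the knockdown library (adjusted p = 0.000136) and differed by 4 points with azacytidine (adjusted p = 1, two-sided Fisher's exact tests). Of its 31 reads in the knockdown library, 27 were full-length. The transcript had 2 exons, and the splice donor before the 20-base exon was unannotated. Nearly all reads of the exon came from 1 of 2 knockdown libraries.

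Combined against azacytidine, 3 last exons were higher and 1 lower (background 6.51% and 1.18%). These were STMN2, CREB3 and SNAP91, and LRRC49. SNAP91, a clathrin assembly protein of synaptic vesicles named here after its values were seen, had 0 of 69, 1 of 81, 2 of 62 and 7 of 15 reads. Its usage was higher in the combined library alone, by 43.4 points over azacytidine (adjusted p = 0.00165) and by 45.4 points over the knockdown (adjusted p = 0.000164, two-sided Fisher's exact tests).

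Over the 36 loci, usage was higher in both knockdown pairs for 18 and lower in both for 4. Among all 169 loci the numbers were 61 and 31. The median difference of last exons was 2.55 points without azacytidine and 3.98 points with it, beside 0.595 and 4 points over all loci. Lower in both pairs were LRRC49, ANKRD36C, LHFPL4 and ENSG00000240086. In ANKRD36C, which has near-identical copies, usage was 27.3% in the control, 17.2% in the knockdown, 37.5% in the azacytidine and 23.1% in the combined library. In LHFPL4, a partner of GABA receptors, it was 15, 4, 9.68 and 6.82%, and in ENSG00000240086 17.4, 17.2, 10 and 8.33%. None of these 3 passed in a pair.

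**Figure D4:**
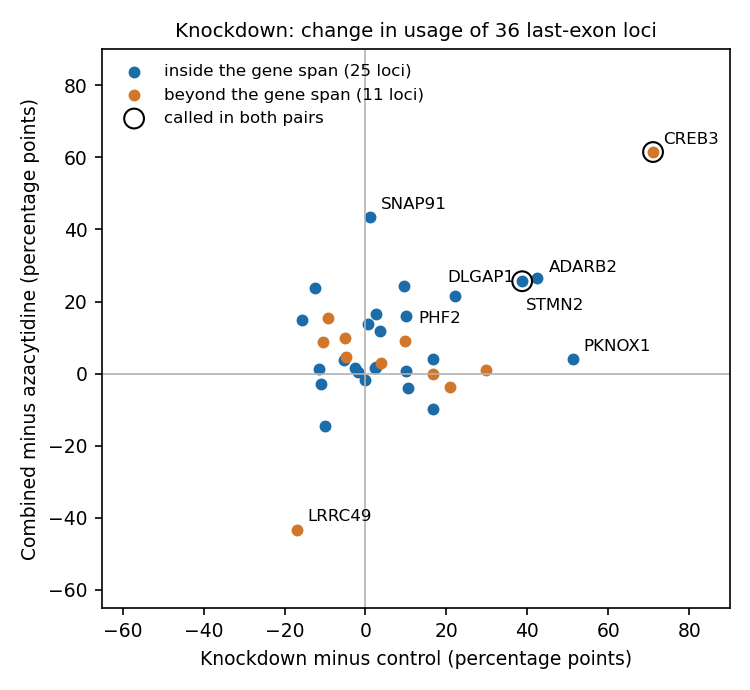
Change in usage of the 36 tested last exons with the knockdown, in percentage points, without azacytidine (horizontal) and with azacytidine (vertical), inside loci in blue and beyond loci in orange, with the called loci circled. STMN2 and CREB3 lie in the upper right, where 18 loci are above 0 on both axes, and PKNOX1 and SNAP91 lie near 1 axis each.

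With azacytidine, 0 of the 36 last exons were called in either direction, against 0.592% of all loci in each. By unadjusted Fisher's exact p in both pairs, 1 was higher (LRRC49) and 0 lower. Usage was higher in both pairs for 12 loci and lower for 6, beside 50 and 29 of 169. The medians were 0 and 3.19 points.

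LRRC49, a leucine-rich repeat protein, had the largest difference in the pair without the knockdown. Its exon of 378 bases (chromosome 15, 71071324 to 71071701) lay 17665 bases past the gene and held 7 of 31 reads in the control, 2 of 36 in the knockdown, 28 of 41 in the azacytidine and 8 of 32 in the combined library. Usage rose by 45.7 points with azacytidine alone (adjusted p = 0.00923), and the difference of 19.4 points in the knockdown background did not pass (adjusted p = 0.164). It was also lower in the combined than in the azacytidine library, by 43.3 points (adjusted p = 0.0060, two-sided Fisher's exact tests). The azacytidine library thus stood apart from the other 3.

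The annotated transcript ENST00000260382.10 of LRRC49 had 13, 26, 3 and 13 estimated reads, fewest in the azacytidine library, and 0 uniquely assigned reads in every library. The gene as a whole had 87, 96, 95 and 62 reads, also counting those given to no transcript. LRRC49 was the 1 last exon called in azacytidine against control (background 1.78% higher and 1.18% lower). Full-length reads at its exon were 1, 1, 5 and 2.

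In combined against knockdown, 2 last exons were higher, POLD3 and SNAP91, and 1 lower, PKNOX1 (background 7.1% and 1.78%). POLD3 had 24 of 75, 15 of 73, 19 of 41 and 21 of 44 reads. Its usage was 32% in the control, 20.5% in the knockdown, 46.3% in the azacytidine and 47.7% in the combined library. The difference was 27.2 points over the knockdown (adjusted p = 0.0391) and 14.3 points over the control (adjusted p = 0.932, two-sided Fisher's exact tests). Annotated reads of POLD3, on ENST00000263681.7, numbered 47, 54, 21 and 21, lower in both azacytidine libraries, whereas reads at the early end ranged from 15 to 24.

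KLHL13, an adaptor of a ubiquitin ligase, had 3 of 51, 7 of 74, 7 of 48 and 9 of 34 reads at an exon of 2931 bases (chromosome X, 117968759 to 117971689). ZNF318, a zinc finger gene, had 1 of 33, 3 of 54, 4 of 24 and 3 of 9 reads at an exon of 2058 bases (chromosome 6, 43325811 to 43327868). Both were higher in each azacytidine library than in its counterpart, and neither passed in a pair. EHD3, a protein of endocytic recycling, had the opposite pattern, with 2 of 19, 9 of 33, 0 of 13 and 0 of 19 reads at an exon 8992 bases past the gene. It did not pass either (adjusted p = 1 and 0.0973, two-sided Fisher's exact tests).

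Loci too shallow to test showed further reads confined to 1 level of a treatment. PRKD3, protein kinase D3, had 0 of 27, 0 of 27, 3 of 4 and 3 of 9 reads, only in the azacytidine libraries. Of all reads of the gene, also those given to no transcript, the exon held 0 of 85, 0 of 69, 3 of 21 and 3 of 48. Its full-length reads numbered 0, 0, 1 and 1. Reads only without azacytidine were found in CFAP61 (1 of 4, 4 of 7, 0 of 4 and 0 of 2) and ACTR3B (1 of 29, 4 of 14, 0 of 12 and 0 of 14). In MAP7 the azacytidine and combined libraries had 0 and 1 transcript reads of the gene, and 9 and 1 when reads given to no transcript are counted. The non-coding gene ENSG00000254202 had 0 and 0 by either count. Usage of these exons with azacytidine could therefore not be measured. HSPBAP1 had 3 of 16, 0 of 9, 4 of 9 and 0 of 5 reads and ENSG00000258520 had 2 of 13, 0 of 4, 3 of 6 and 0 of 2, only without the knockdown.

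**Figure D5:**
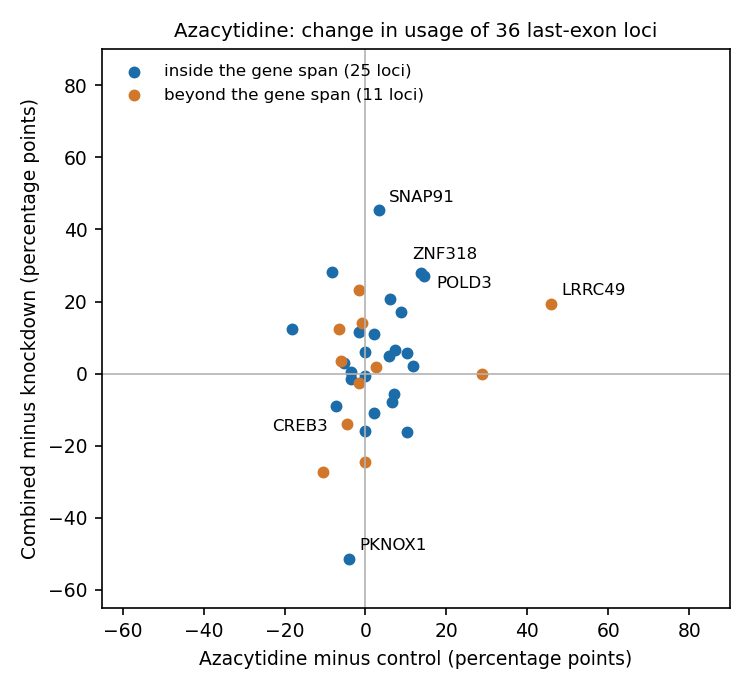
Change in usage of the 36 tested last exons with azacytidine, in percentage points, without the knockdown (horizontal) and with it (vertical), inside loci in blue and beyond loci in orange. No locus is called, LRRC49 lies farthest right at 45.7 points, and SNAP91 and PKNOX1 lie near the vertical axis at 45.4 and -51.4 points.

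Genes that carry out 3′ end processing were described at the gene level, in reads scaled by effective library size. The list held 36 genes of the cleavage and polyadenylation factors, the U1 particle and related RNA-binding proteins, of which 33 had a mean of at least 20 reads. With the knockdown 1 was higher and 0 lower, against 0.626% and 0.344% of 8145 genes. The median log2 ratio of the list was 0.20 without azacytidine and -0.02 with it, beside 0.18 and 0.05 for all genes.

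The gene that rose was ELAVL4, a neuronal RNA-binding protein, with 89 reads in the control, 256 in the knockdown, 63 in the azacytidine and 164 in the combined library. The knockdown libraries were above both others. Its log2 ratio was 1.37 (adjusted p = 2.35e-14) and 1.40 (adjusted p = 4.64e-10, two-sided exact binomial tests). In the additive edgeR model 0 genes of the list were called.

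By adjusted exact binomial p alone, without regard to fold, 9 genes of the list were higher and 2 lower in knockdown against control, and 6 and 1 in combined against azacytidine. The shares of all genes were 16.4% and 3.73% in the first pair, and 9.09% and 5.93% in the second. In both pairs 5 genes were higher and 1 lower, against 2.77% and 0.749% of all genes. Besides ELAVL4 the higher ones were the cleavage factors CPSF1, SYMPK and CPSF6 and the poly(A) polymerase PAPOLA, and the lower one was ELAVL3, all named after their values were seen. Their log2 ratios stayed under 1, from 0.44 in the second pair of CPSF6 to 0.99 in that of SYMPK, and were -0.53 and -0.49 in ELAVL3. FIP1L1, a subunit of the cleavage and polyadenylation specificity factor named after its values were seen, had 100, 243, 113 and 91 reads, highest in the knockdown library.

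With azacytidine 0 genes of the list were called in either direction, against 2.93% higher and 6.86% lower of all genes. Its median log2 ratio was -0.10 and -0.27, beside 0.05 and -0.09 for all genes. At an adjusted exact binomial p under 0.05 in 1 pair, without regard to fold, 3 were higher and 5 lower in azacytidine against control, and 4 and 12 in combined against knockdown. The shares of all genes were 12.2% and 13.8% in the first pair, and 16.8% and 25.5% in the second. In both pairs 2 were higher (SYMPK and ELAVL3) and 4 lower (CPSF6, PABPC1, HNRNPC and ELAVL2), against 6.31% and 9.96% of all genes.

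The targeted gene was lower in each knockdown library, but passed the test in 1 pair. TARDBP, the gene of TDP-43, fell from 104 control reads to 72, and had 73 reads with azacytidine alone against 43 with both treatments, with log2 ratios of -0.67 (adjusted p = 0.0170) and -0.73 (adjusted p = 0.0573, two-sided exact binomial tests). Reads assigned to genes ranged from 466337 to 767621 per library. All 13 neuronal markers were detected, with sums of 1056 to 2194 reads. The 6 pluripotency markers summed to 129 to 276 reads, mostly of LIN28A, with POU5F1 and NANOG at 0 to 2. Astrocyte markers summed to 0 to 9 reads, with AQP4 at 0 in every library. Oligodendrocyte markers summed to 22 to 65 reads, of which SOX10 had 0 or 1.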

How the data were processed

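Polyadenylated RNA of 4 cultures was sequenced as PacBio long reads with MarathonRT in first-strand synthesis, per the labels' protocols. The genome build is hg38, per the submitters' processing notes, and the deposited annotation names Bambu as its source. The deposited gene and transcript tables hold estimated counts, of all and of full-length reads. A further deposited table holds counts of uniquely assigned reads. The deposited CPM values were not used in tests. The exon positions deposited by the authors have no unit. Of 166654 transcripts shared with GENCODE 29, 99.96% had the same exons. No columns of other series were present (0).

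Every deposited gene count lay within 0.00031 of an even number and every unique count was even (0 odd values after rounding). Halved values are used as reads throughout, 2 counts standing for 1 read. Why values are even is not given in the sources used here, and every read number and p-value depends on this choice. Tests had been designed for whole reads. Gene symbols were found for 454 of the 723 last-exon loci. One transcript of a gene with no strand was left out. Motifs near the splice acceptor, internal A stretches and repeats need a genome sequence and are not analysed here.

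Loci were tested by two-sided Fisher's exact tests of rounded reads, adjusted by Benjamini-Hochberg over all 169 unannotated exon loci with at least 10 reads and a gene mean of 20 transcript reads. Genes were tested by exact binomial tests with TMM sizes (edgeR 4.0.16, R 4.3.3), with a pseudocount of 0.5, and called at an absolute log2 ratio of 1. An additive edgeR model, DESeq2 1.42.0 size factors, other counts and other filters were alternatives. Other values were computed with Python 3.11.15 and scipy 1.17.1. The scripts were tested on simulated data. Intervals are 95% Wilson intervals and a count of 0 allows up to 3 reads. Neither covers more than counting error, because reads of amplified cDNA are not independent molecules.

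The loci, lists, markers and rules were chosen with earlier results of these data known. Named loci were those called, the 8 with most reads inside and beyond genes, the 4 with the largest difference shared by both pairs in each direction of each treatment, those in known TDP-43 targets, and up to 5 with reads at only 1 level of a treatment.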

Additional observations from a re-analysis of the deposited data

How the results depend on the processing

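No paired analysis was possible because the groups share a single replicate number. Matching by treatment is already in the pairs of libraries and in the additive gene model. For the knockdown, 2 last exons were called in STMN2 and CREB3. There was 1 call with uniquely assigned counts and 1 with full-length counts (STMN2 in each), 1 without a low-count filter (CREB3), 1 with exons of either strand (STMN2), and 1 with TMM or DESeq2 library sizes (ADARB2 in each). With at least 20 reads and a gene mean of 40 there were 0 of 5 tested. With counts as deposited, not divided by 2, 7 were called for the knockdown, 6 higher and 1 lower, and 4 for azacytidine. No crosswise call was made under any of these settings (0).

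The share ratio inside genes, knockdown over control, passed the test with uniquely assigned counts (1.16), full-length counts (1.28) and exons of either strand (1.19). Combined over knockdown inside genes fell short with full-length counts (1.04). Beyond genes, full-length counts gave 0.764 for knockdown over control, which passed, and 1.06 and 1.27 for the azacytidine ratios, which did not. Combined over azacytidine beyond genes, 1.01, turned to 0.914 with full-length counts, 0.858 with exons of either strand and 0.996 where a last position in 1 transcript sufficed; none passed. The cause was not tested. With uniquely assigned counts, detected loci were 132, 133, 142 and 155 in control, knockdown, azacytidine and combined, and with at least 1 full-length read 272, 242, 276 and 265. The additive model called 0 genes of the 3′ end list. Among differences of single loci, 8 fell below and 4 rose above 10 points with full-length or unique counts, and 18 did not change side. Depth limits all locus values, since 115 of 723 loci had at least 10 reads.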
